A study of Mus musculus with 18 samples.

Results

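The neurotrophin family in sorted cells of the mouse small intestine was followed through 6 genes, Bdnf, Ntf3, Ntrk2, Ntrk3, Ngfr and Sort1, taken by their symbols from tables of 23238 distinct gene symbols. All 6 were found in each of the 18 count tables. The cells came from adult C57BL/6J mice that carried a tamoxifen-inducible Cre driven by Pdgfrb (PDGFRb+-CreERT2) and a Tomato reporter. In the labels, the WT group carried these alleles alone, and the LATS1/2 KO group also carried floxed Lats1 and Lats2 on both chromosomes (Lats1f/f Lats2 f/f). From both genotypes, flow cytometry yielded PDGFRβ+ stromal cells of the intestine (IntSCs) and the endothelial cells that line the lacteals, which are the villus lymphatics (LECs). This gave 6 WT IntSC, 5 KO IntSC, 4 WT LEC and 3 KO LEC libraries. Pdgfrb drives Cre in fibroblasts, pericytes and part of the smooth muscle, so the deletion was aimed at the stroma, and the LECs of the same genotype are neighbours of the targeted cells. The study describes these groups as mice gathered over more than 1 experiment. The labels tie no library to a mouse or an experiment, so values within an experiment could not be computed, and p-values measure the spread between libraries.

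Neurotrophins are secreted growth factors that keep neurons alive and shape their processes. They are made as precursors and cut by proprotein convertases, plasmin or matrix metalloproteases. The mature factors bind Trk receptor tyrosine kinases, brain-derived neurotrophic factor (BDNF) chiefly TrkB and neurotrophin-3 chiefly TrkC, and the precursors bind the p75 receptor together with sortilin. In the gut, neurotrophins act on enteric neurons, enteric glia and visceral sensory fibres.

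Bdnf is transcribed from many alternative first exons that are spliced to a shared coding exon, and its starts are printed here because it was the member that differed between the genotypes. In GENCODE vM21 on GRCm38, the assembly also called mm10, the gene lay at chr2:109674700-109727007 on the plus strand, with 11 coding transcripts, 9 distinct starts and 1 distinct 3′ end. Reads from the 3′ end therefore count Bdnf as a whole and do not tell which start was used. RefSeq windows on GRCm38.p6, from 250 bases before to 50 bases after a start, were at hand for 7 Bdnf starts. They were searched on both strands for GGAATG, the core letters bound by TEAD factors, through which YAP and TAZ act, for the AP-1 motif TGANTCA and for the cyclic AMP response element TGACGTCA. The GGAATG letters stood in 2 of the 7 windows, the AP-1 letters in 1 and the cyclic AMP response element in 0. The 2 windows that held a match are shown because they are the only Bdnf windows with any of these letters, with the matches in capitals (GGAATG, its reverse complement CATTCC, and TGAATCA for AP-1). They are the second start, at chr2:109676782-109677081, and the seventh, at chr2:109722671-109722970, both on the plus strand.
Bdnf start 2: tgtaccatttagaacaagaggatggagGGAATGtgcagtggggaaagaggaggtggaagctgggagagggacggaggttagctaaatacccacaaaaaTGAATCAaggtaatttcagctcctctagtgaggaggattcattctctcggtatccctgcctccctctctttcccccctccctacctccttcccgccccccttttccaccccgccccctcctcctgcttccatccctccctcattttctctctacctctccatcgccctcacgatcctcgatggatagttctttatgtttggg
Bdnf start 7: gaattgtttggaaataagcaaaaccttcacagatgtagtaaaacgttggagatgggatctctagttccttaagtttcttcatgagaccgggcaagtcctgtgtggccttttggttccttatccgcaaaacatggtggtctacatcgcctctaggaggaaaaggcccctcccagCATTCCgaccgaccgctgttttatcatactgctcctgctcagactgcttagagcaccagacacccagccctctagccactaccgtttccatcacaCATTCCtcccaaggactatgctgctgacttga
Counted with the start base as 1 and the base before it as -1, GGAATG began at -223 and the AP-1 letters at -152 in the second window. In the seventh window the match was on the minus strand at -77 and at 19. Across 32851 windows of the same length, 14.7% held GGAATG, 7.81% the AP-1 letters and 1.79% the cyclic AMP response element. The 2 Ntf3 windows, the Ntrk2 window and the Ngfr window held none of the 3 motifs. A match describes the letters of a window and is not a measured binding site.

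**Figure D1:**
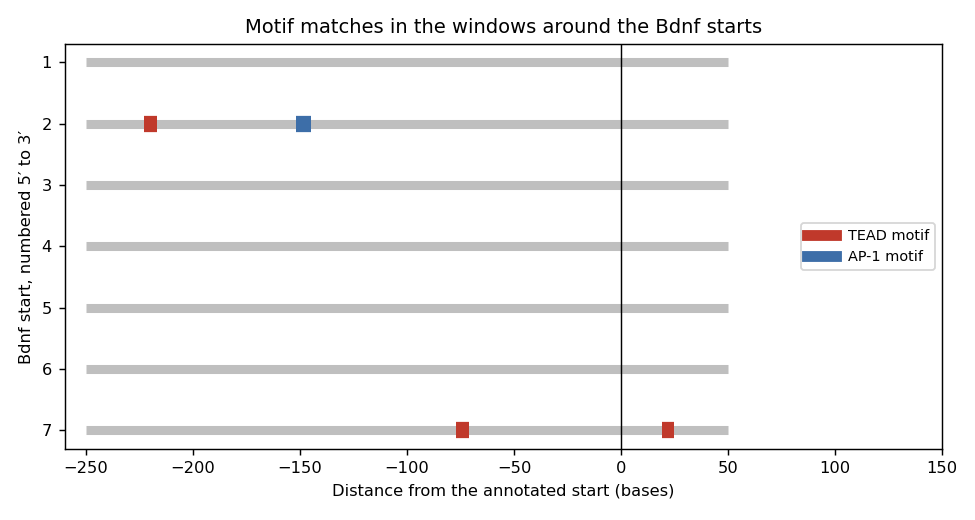
Windows around 7 RefSeq starts of Bdnf, numbered from 5′ to 3′ (y axis), with the distance from the start in bases (x axis). Red marks are GGAATG matches and the blue mark is the AP-1 match, and 5 of the 7 windows hold neither.

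The other members were placed by the same annotation. Ntf3, which encodes neurotrophin-3, lay at chr6:126101412-126166910 on the minus strand. Ntrk2, the gene of TrkB, lay at chr13:58806569-59133970 on the plus strand, and Ntrk3, the gene of TrkC, at chr7:78175959-78738012 on the minus strand. Both receptor genes have 6 annotated 3′ ends, so full-length and truncated receptors may be counted together. Ngfr, the gene of p75, lay at chr11:95568818-95587735 on the minus strand, and Sort1, the gene of sortilin, at chr3:108284082-108361511 on the plus strand. Antisense genes are annotated over Bdnf, Ntrk2, Ntrk3 and Sort1, and 0 of them had a row of their own in the count tables. Since the strand setting of the counting was not stated, reads of theirs that fall within a member cannot be told apart from its own. The antisense genes over Bdnf and Sort1 have their annotated 3′ ends outside these members, at chr2:109670908 and chr3:108283898.

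Total counts ranged from 5361250 to 10549233 per library, so 3 reads, the floor used here, stood for 0.284 to 0.560 read counts scaled to library size (CPM). CPM values below were scaled with TMM factors over all 18 libraries, and on that scale the floor was 0.281 to 0.621 CPM. Intervals and floors cover counting error only. The sort was checked by summed marker lists. The 9 stromal genes summed to 11644 to 17908 CPM in WT IntSCs and 8070 to 13581 CPM in KO IntSCs. In LECs they summed to 659 to 2189 CPM in WT and 340 to 605 CPM in KO. The 10 LEC genes summed to 10914 to 17446 CPM in LECs and 342 to 764 CPM in IntSCs. Lats1 averaged 17.3 CPM in WT and 15.9 CPM in KO IntSCs and Lats2 72.0 and 113 CPM, so neither was called lower where the label is KO (adjusted p = 0.987 and 0.252 by edgeR). A 3′ read can come from a transcript that has lost internal exons, and these counts therefore do not check the labels.

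The question of the main comparison was what stromal cells express once LATS1/2, the kinases that restrain YAP and TAZ, are deleted. Among the 6 members, Bdnf rose in the IntSC libraries labelled KO and was the single member past the threshold of an edgeR adjusted p of 0.05. The background was 1.47% of 12421 genes called in this comparison, with 0.853% called higher and 0.62% lower. Bdnf in the 6 WT IntSC libraries ran from 1.62 CPM over a median of 10.1 CPM to 26.3 CPM. In the KO IntSC libraries 1 to 5 it was 159.1, 72.7, 70.7, 121.5 and 98.3 CPM. Every KO library lay above every WT library, and the groups did not overlap. In reads, Bdnf had 402 over the WT libraries and 3916 over the KO libraries. Such a separation upward was shown by 1.73% of the genes with a mean of at least 5 CPM. The means were 11.4 ± 8.39 CPM for WT and 104 ± 37.0 CPM for KO IntSCs (SD, n = 6 and 5). On the log2 scale the difference was 3.20 ± 0.46 (SE), 9.16-fold, with an edgeR adjusted p of 5.80e-04. By p, Bdnf ranked 16 among the 106 genes called higher, and by log2 fold change 26. When all 4 groups were put in one fit, the log2 fold change was 3.19 and the adjusted p was 0.0596, so the call was lost. In bulk RNA, more cells that express a gene and more RNA per cell cannot be told apart.

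**Figure D2:**
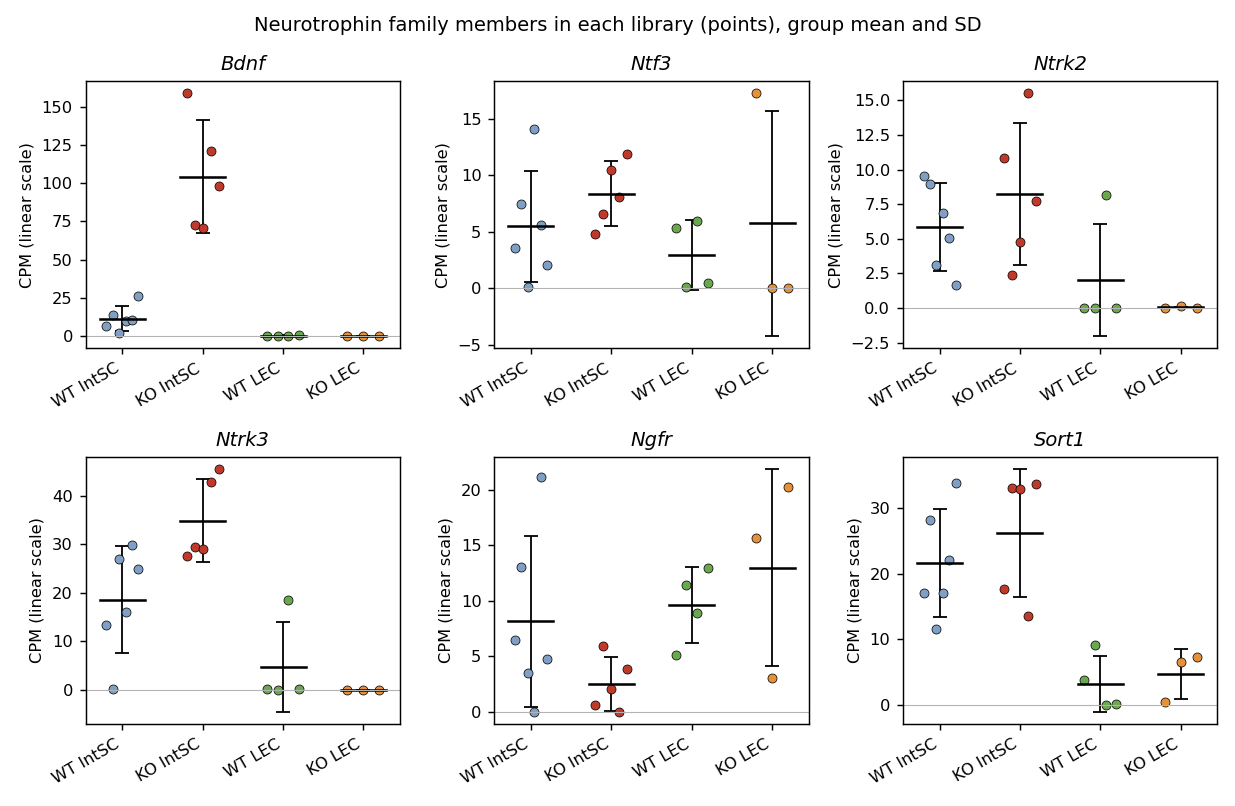
CPM of the 6 members (y axis, linear scale, own range in each panel) in each library (points) of the 4 groups (x axis), with the group mean (horizontal line) and SD (vertical line). Bdnf in the 5 KO IntSC libraries sits between 70.7 and 159.1 CPM, above all 6 WT IntSC libraries, and the LEC libraries lie at or near 0 for Bdnf, with single high LEC libraries for Ntf3, Ntrk2 and Ntrk3.

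Marker sums of some other cell types also differed between the IntSC genotypes. The 12 epithelial and Paneth cell genes summed to 2.96 to 127 CPM in WT IntSCs, with a median of 7.53 CPM, and to 77.3 to 245 CPM in KO IntSCs. Of the list, 3 genes (Dmbt1, Lyz1 and Krt19) were called higher and 0 lower. The WT library with the highest epithelial sum, WT IntSC 6 at 126.6 CPM, also had the highest WT Bdnf. Its Bdnf, 26.3 CPM, was below that of every KO library, also of KO IntSC 1 and 2, whose epithelial sums were lower than its own (77.3 and 93.7 CPM). Among the KO IntSCs, the library with the lowest epithelial sum, KO IntSC 1, had the highest Bdnf, 159.1 CPM. In the 3 KO LEC libraries the epithelial sum was 77.1, 100.2 and 226.8 CPM, while Bdnf had 0 reads. The part of epithelial RNA in the Bdnf difference was not tested. Without WT IntSC 6 the Bdnf log2 fold change was 3.64 (adjusted p = 1.07e-04 by edgeR).

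**Figure D3:**
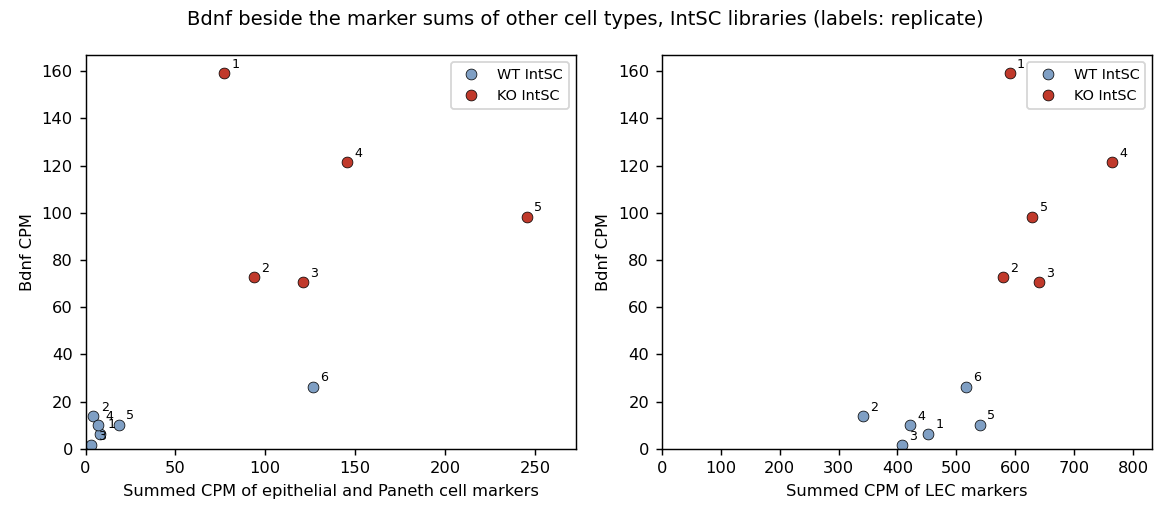
Bdnf CPM (y axes) against the summed CPM of epithelial and Paneth cell markers (left x axis) and of LEC markers (right x axis) in the 11 IntSC libraries, with the replicate number beside each point and the genotype as colour. WT IntSC 6 has an epithelial sum of 126.6 CPM, within the range of the KO libraries, and 26.3 CPM of Bdnf, below all of them.

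The LEC list summed to 342 to 540 CPM in WT and 579 to 764 CPM in KO IntSCs without overlap, and 0 of its 9 tested genes passed the test with edgeR (2 had an unadjusted p under 0.05, DESeq2 called 1 and limma-voom called 0). Its largest genes in IntSCs were Pdpn (mean 236 CPM in WT and 326 CPM in KO) and Nrp2 (128 and 172 CPM). Pecam1, Cldn5 and Flt4 also had higher means in KO (87.1, 23.8 and 9.47 CPM) than in WT (37.2, 12.2 and 3.82 CPM). Lyve1 (5.44 and 5.41 CPM), Ccl21a (17.9 and 12.6), Reln (3.34 and 2.08) and Mmrn1 (2.16 and 1.77) were not higher. Prox1 averaged 0.079 and 0.080 CPM. LECs themselves had almost no Bdnf. Of 9 stromal genes, 0 were called higher and 1 lower, Col3a1, with 6 at an unadjusted p under 0.05, 5 called by DESeq2 and a median log2 fold change of -0.54. Pericyte marker sums overlapped (325 to 583 CPM in WT and 313 to 640 CPM in KO). Of 8 pericyte genes, 0 were called higher and 1 lower, Kcnj8, with 4 at an unadjusted p under 0.05 and 3 called by DESeq2, and Mcam and Notch3 had positive log2 fold changes of 1.25 and 0.75 that did not pass the test. Blood endothelial sums were 1373 to 2819 CPM in WT and 1075 to 1575 CPM in KO, with Ly6c1 called higher and Cd34 lower among 7 genes. Cd34 was the largest part, 1685 of a mean sum of 2036 CPM in WT and 816 of 1315 CPM in KO. Of the 7 genes, 4 had positive log2 fold changes, with Flt1 at 54.3 CPM in WT and 108 CPM in KO and Ly6c1 at 112 and 206 CPM. Smooth muscle sums overlapped (1034 to 1793 CPM and 1288 to 2300 CPM), with 0 of 7 genes called by edgeR, DESeq2 or limma-voom and 1 at an unadjusted p under 0.05. Pdgfrb, the gene of the driver, averaged 479 CPM in WT and 873 CPM in KO IntSCs (adjusted p = 0.0614 by edgeR), and the part of these cell types or of Pdgfrb in the Bdnf difference was not tested.

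Ntf3, the other ligand, was low in both IntSC groups. It ran from 0.13 CPM over a median of 4.58 CPM to 14.0 CPM in WT, and was 4.83, 6.58, 10.5, 8.07 and 11.9 CPM in KO IntSCs 1 to 5. All 5 KO values fell inside the WT range. The log2 fold change was 0.61 ± 0.86 (SE, adjusted p = 0.931 by edgeR).

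The Trk receptor genes were also read in IntSCs. Ntrk2 ran from 1.66 CPM over a median of 5.96 CPM to 9.56 CPM in WT, and was 10.8, 2.42, 4.76, 15.5 and 7.73 CPM in KO IntSCs 1 to 5. Of the KO libraries, 2 were above the WT range and 3 within it, and the log2 fold change of 0.48 ± 0.76 (SE) did not pass the test (adjusted p = 0.942 by edgeR). Ntrk3 ran from 0.17 CPM over a median of 20.4 CPM to 29.7 CPM in WT, and was 27.5, 29.4, 29.0, 42.8 and 45.5 CPM in KO IntSCs 1 to 5. The KO libraries were thus in the upper part of the WT range or, for 2 of 5, above it. The Ntrk3 log2 fold change was 0.91 ± 0.58 (SE, adjusted p = 0.697 by edgeR).

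The genes of p75 and sortilin, the receptors of the precursors, did not pass the test in IntSCs either. Ngfr ran from 0 over a median of 5.59 CPM to 21.2 CPM in WT, and was 0.65, 5.90, 2.02, 0 and 3.87 CPM in KO IntSCs 1 to 5. The highest KO value was near the WT median and 1 library of each group had 0 reads. The log2 fold change was -1.69 ± 1.19 (SE, adjusted p = 0.756 by edgeR). Enteric glia carry p75, and their 10 markers summed to 6.28 to 27.1 CPM in WT and 2.09 to 17.6 CPM in KO IntSCs, with Gfap, Erbb3 and Cdh19 at 0 in every library. The 14 enteric neuron markers summed to 89.6 to 141 CPM in WT and 62.3 to 113 CPM in KO IntSCs. The part of either cell type in the Ngfr values was not tested. Sort1 ran from 11.6 CPM over a median of 19.6 CPM to 33.9 CPM in WT, and was 17.8, 33.1, 33.0, 13.5 and 33.8 CPM in KO IntSCs 1 to 5. All KO values lay within the WT range, and the log2 fold change was 0.28 ± 0.38 (SE, adjusted p = 0.927 by edgeR).

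**Figure D4:**
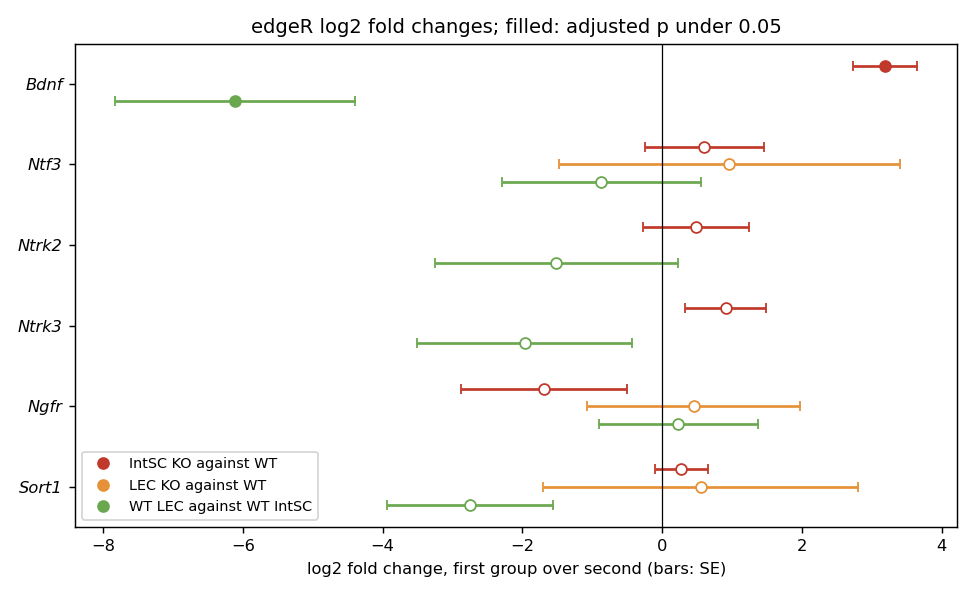
edgeR log2 fold changes (x axis) with their SE (bars) for the 6 members (y axis) in 3 comparisons, KO against WT in IntSCs, KO against WT in LECs, and WT LEC against WT IntSC. Filled points passed an adjusted p of 0.05 (Bdnf at 3.20 in IntSCs and at -6.11 between the WT cell types), and Bdnf, Ntrk2 and Ntrk3 have no LEC genotype point because their counts were too low for the fit.

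The rest of the pathway was read from lists of genes by role, and no more than 1 gene of each of these lists was called in IntSCs. Of the other neurotrophin ligands and receptors, 5 of 10 could be tested and 0 were called by edgeR, DESeq2 or limma-voom (2 had an unadjusted p under 0.05), with a median log2 fold change of -0.13 beside 0.0027 for all genes tested. The most abundant were Sorcs2 (49.5 CPM in WT and 51.9 in KO) and Sorl1 (48.0 and 28.3 CPM), receptors of the sortilin family, and Nradd (39.5 and 36.2 CPM), a relative of p75.

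Of 13 tested proteases and inhibitors that act on neurotrophin precursors, 0 were called higher and 1 lower (median 0.041). It was Pcsk6, a proprotein convertase, which moved from a mean of 263 to 102 CPM, -1.37 ± 0.22 in log2 (SE, adjusted p = 0.00130 by edgeR). Of 26 Trk adaptors and signal carriers, 0 were called higher and 1 lower (median 0.082), and it was Pik3r1, the regulatory subunit of phosphoinositide 3-kinase, which fell from 596 to 349 CPM (log2 fold change -0.78 ± 0.18, SE, adjusted p = 0.0318 by edgeR). Of 14 p75 adaptors 0 were called by any of the 3 tools (3 had an unadjusted p under 0.05, median -0.13). Rhoa, Aph1a and Maged1 were the most abundant of them.

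Of 4 tested GDNF family genes, 0 were called by any of the 3 tools (1 had an unadjusted p under 0.05, median 0.32). Gdnf, the ligand that guides enteric neuron precursors, averaged 10.98 CPM in WT and 17.2 CPM in KO, Artn 5.77 and 13.3 CPM, and the receptor gene Gfra2 71.9 and 43.0 CPM. Of 11 other neurotrophic factors, 0 were called by edgeR, 1 by DESeq2 and 1 by limma-voom (1 had an unadjusted p under 0.05, median -0.085). Mdk, which encodes midkine, was nearest to the threshold, at 234 CPM in WT and 134 CPM in KO (adjusted p = 0.0548 by edgeR). Igf1 and Slit2 had log2 fold changes of -0.085 and 0.043. Of 22 tested regulators of Bdnf transcription, 0 were called by any of the 3 tools (2 had an unadjusted p under 0.05, median 0.14). The most abundant, Junb, Jun and Atf4, had log2 fold changes of 0.48, 0.10 and 0.055.

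**Figure D5:**
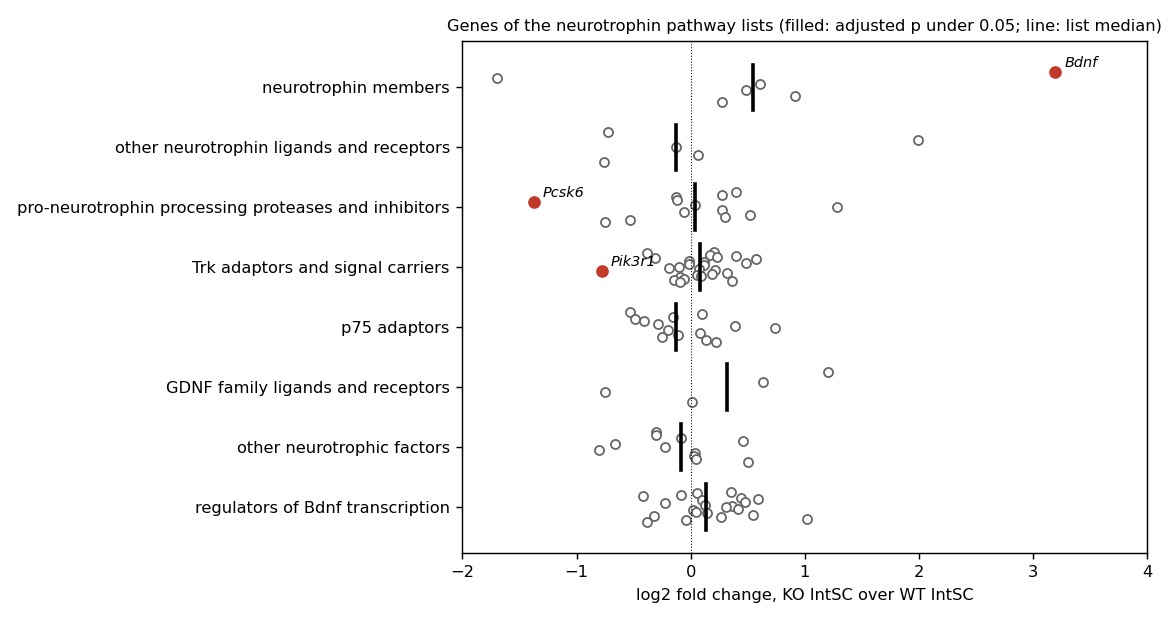
log2 fold change between KO and WT IntSCs (x axis) of every tested gene of 8 lists (y axis). Filled points passed an edgeR adjusted p of 0.05 and vertical lines are list medians, which for the 7 lists beside the members lie between -0.13 and 0.32, and the filled points are Bdnf, Pcsk6 and Pik3r1.

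In LECs the members were low and patchy. Bdnf had 0 reads in 3 of 4 WT LEC libraries and 0.596 CPM (6 reads) in WT LEC 4, and 0 reads in all 3 KO LEC libraries. Ntrk2 was 0, 0, 8.14 and 0 CPM in WT LECs 1 to 4 and had a single read in 3 KO LEC libraries. Ntrk3 was 0.10, 0, 18.5 and 0.10 CPM in WT LECs 1 to 4, with 198 reads in WT LEC 3, and had 0 reads in KO LECs. Nearly all reads of both receptor genes in LECs thus came from WT LEC 3. The stromal marker sum of that library was 715.5 CPM, against 2189 CPM in WT LEC 1, where Ntrk2 had 0 reads, and the part of stromal RNA in these reads was not tested. Many genes were uneven in the same way, and of the genes with a group mean of at least 5 CPM, 14.7% in WT LECs and 24.8% in KO LECs had a library with no more than 1 read, against 10.2% in WT IntSCs and 5.09% in KO IntSCs.

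Ntf3 was 5.32, 0.12, 5.98 and 0.50 CPM in WT LECs 1 to 4, and 17.2, 0 and 0 CPM in KO LECs 1 to 3, so the KO signal was that of 1 library (121 reads). Sort1 was 3.80, 9.10, 0 and 0.10 CPM in WT LECs and 0.43, 6.56 and 7.39 CPM in KO LECs. Ngfr was the most even member in LECs. It was 5.13, 11.4, 8.88 and 12.9 CPM in WT LECs 1 to 4, and 15.7, 3.06 and 20.2 CPM in KO LECs 1 to 3.

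Marker sums differed between the LEC genotypes. Stromal sums did not overlap (659 to 2189 CPM in WT and 340 to 605 CPM in KO). Of 9 tested stromal genes, 0 had a positive log2 fold change (median -1.34) and 0 were called by edgeR. Epithelial and Paneth cell sums were 21.6 to 32.1 CPM in WT and 77.1 to 227 CPM in KO LECs. The part of either cell type in the LEC values of the members was not tested. Between KO and WT LECs, 0 of the 3 members that could be fitted were called by edgeR, DESeq2 or limma-voom, and 0 had an unadjusted p under 0.05. The background was 0.0658% of 10639 genes called by edgeR, 0.0282% higher and 0.0376% lower. The log2 fold changes were 0.96 ± 2.44 for Ntf3, 0.45 ± 1.53 for Ngfr and 0.55 ± 2.25 for Sort1 (SE, adjusted p = 0.9999 by edgeR for each). Ntf3 turned to -7.81 without KO LEC 1 and Ngfr to -0.017 without KO LEC 3. For Bdnf, Ntrk2 and Ntrk3, two-sided exact permutation tests of log2(CPM + 1) gave p = 1, 1 and 0.229 over 3 tests, and 4 against 3 libraries cannot give less than 0.0571. Of the pathway lists, 1 gene was called by edgeR between the LEC genotypes, Junb, an AP-1 subunit. It fell by 1.59 on the log2 scale (adjusted p = 0.0259 by edgeR). Of 23 tested regulators of Bdnf transcription, 6 had an unadjusted p under 0.05, DESeq2 called 3 and limma-voom called 1. Besides Junb these 6 were Fos, Fosb, Jun, Nr4a1 and Nr4a2, with log2 fold changes of -2.15, -1.51, -0.72, -2.11 and -6.40. DESeq2 also called 1 of 11 proteases and inhibitors and 1 of 14 p75 adaptors.

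The cell types were then compared within each genotype, and these comparisons share their libraries with those above. In WT, Bdnf was lower in LECs than in IntSCs, and it was the single member called (1 lower, 0 higher) against a background of 22.6% of 12203 genes, 10.3% higher and 12.3% lower in LECs. The ratio of IntSC to LEC reads at equal depth was 74.8, with a counting interval of 34.4 to 204 that rests on 6 LEC reads (log2 fold change -6.11 ± 1.72, SE, adjusted p = 0.0176 by edgeR). This call was lost when the replicate number was put in the fit as a block (adjusted p = 0.0747 by edgeR). Sort1 was also lower in every WT LEC library (at most 9.10 CPM) than in every WT IntSC library (at least 11.6 CPM), a separation downward shown by 11.9% of genes, and did not pass the test (log2 fold change -2.75 ± 1.19, SE, adjusted p = 0.117 by edgeR). DESeq2 called it (adjusted p = 0.0272), as did edgeR without WT LEC 2 (adjusted p = 0.0396). Ntrk2 and Ntrk3 had log2 fold changes of -1.51 and -1.97 (adjusted p = 0.622 and 0.429 by edgeR). Without WT LEC 3 they were -8.46 and -7.78, with adjusted p in edgeR of 0.0159 and 0.00384. Ngfr differed by 0.23 (adjusted p = 0.924 by edgeR) and Ntf3 by -0.87 (adjusted p = 0.745 by edgeR).

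Between KO LECs and KO IntSCs, 3 members were called lower in LECs and 0 higher, against a background of 25.9% of 12758 genes, 9.11% higher and 16.8% lower. Bdnf was at least 274-fold and Ntrk3 at least 91.4-fold higher in KO IntSCs, with the LEC level set to the floor of 3 reads per library (adjusted p = 1.74e-05 and 2.42e-04 by edgeR). For Ntrk2 the ratio was 197, with a counting interval of 35.4 to 7787, since LECs had 1 read (adjusted p = 0.0117 by edgeR). The Ntrk2 call was lost when the replicate number was put in the fit as a block (adjusted p = 0.204 by edgeR). Sort1 again did not overlap between the cell types, as 19.2% of genes did downward, and did not pass the test (log2 fold change -2.54 ± 0.96, SE, adjusted p = 0.0771 by edgeR). Ngfr had a log2 fold change of 2.30 ± 1.39 (SE, adjusted p = 0.280 by edgeR) and Ntf3 of -0.59 ± 1.74 (SE, adjusted p = 0.864 by edgeR). Ntf3 passed the test without KO LEC 1 (-9.06, adjusted p = 0.00850 by edgeR).

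The receptors and ligands outside the 6 members were read the same way. Of 5 tested in WT, 4 were called lower in LECs and 0 higher, with Sorl1, Sorcs2 and Nradd among them and a median log2 fold change of -4.06 beside -0.042 for all genes. Over all genes, 10.3% were called higher and 12.3% lower in WT LECs, and the counts of the lists stand beside these shares. Among 13 tested processing enzymes, 2 were called higher in WT LECs and 1 lower, and Pcsk6 was at 814 CPM in WT LECs against 263 CPM in WT IntSCs, Plau, the urokinase gene, at 63.2 against 2.28 CPM, and Pcsk5 at 14.7 against 121 CPM. Of 26 Trk adaptors and signal carriers, 5 were called higher (Akt1 and Hras among them) and 4 lower (Pik3r1 and Akt2 among them). Of 14 p75 adaptors, 2 were called higher and 1 lower, and of 4 GDNF family genes 0 higher and 2 lower, Gfra2 and Artn. Of 12 other neurotrophic factors, 2 were called higher, with the guidance factor gene Sema3a at 52.6 against 0.481 CPM, and 6 lower, with Slit2, Slit3 and Mdk among them. Of 22 regulators of Bdnf transcription, 1 was called higher and 8 lower, including Jun, Fos, Nr4a1 and Rest. Between KO LECs and KO IntSCs, where 9.11% of all genes were called higher and 16.8% lower, the counts were 0 higher and 3 lower of 6 other ligands and receptors, 3 and 5 of 15 enzymes, 3 and 5 of 26 Trk adaptors, 3 and 0 of 14 p75 adaptors, 0 and 2 of 5 GDNF family genes, 3 and 5 of 11 other factors and 0 and 7 of 23 regulators.

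Whether the genotype effect differed between IntSCs and LECs was tested by the interaction in a fit of all 4 groups, which called 1.7% of 14015 genes (1.42% with a positive and 0.278% with a negative interaction), and 0 of the 6 members. By unadjusted p, 3 members were under 0.05, DESeq2 called 2 and limma-voom called 0. Bdnf had an interaction of 6.57 ± 1.89 (SE, adjusted p = 0.0758 by edgeR) and Ntrk3 of 9.10 ± 2.63 (SE, adjusted p = 0.0795 by edgeR). These fitted sizes depend on LEC counts at or near 0 and are no bound. Ntrk3 passed without WT LEC 2 (adjusted p = 0.0462 by edgeR), and its IntSC part was the 0.91 given above. With 1 library left out, the Ntrk3 interaction ran from 3.27 to 9.51 (edgeR adjusted p from 0.0462 to 0.447). Of the 200 Ntrk3 reads in WT LECs, 198 came from WT LEC 3, and KO LECs had 0. Ntrk2 had an interaction of 5.75 (adjusted p = 0.256 by edgeR), which became -1.23 without WT LEC 3. Of the lists, Pcsk6 was called with a negative interaction of -1.51 (adjusted p = 0.0201 by edgeR). Junb, Fos and Nr4a2 of the regulators were called with positive ones of 2.14, 2.67 and 6.54. Their log2 fold changes between genotypes were 0.48, 0.44 and 0.021 in IntSCs and -1.59, -2.15 and -6.40 in LECs. In KO LECs Nr4a2 had 5 reads.

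By level, Bdnf was thus ordered KO IntSC, WT IntSC, WT LEC and KO LEC, where the last neighbours could not be separated at this depth. Ntrk3 followed the same order of means, 34.8 ± 8.57, 18.5 ± 11.01, 4.68 ± 9.23 and 0 CPM (SD, n = 5, 6, 4 and 3), and the first neighbours, the WT neighbours and the last did not differ past the threshold. The means of Ngfr stood in another order, 2.49 ± 2.42 CPM in KO IntSCs, 8.15 ± 7.69 CPM in WT IntSCs, 9.60 ± 3.41 CPM in WT LECs and 13.0 ± 8.89 CPM in KO LECs (SD), and no neighbours in it passed the test.

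The members were compared with each other and with all genes by Pearson's r of log2(CPM + 1), a description of libraries that share groups and cell types. Over 18 libraries Bdnf had an r of 0.75 with Ntrk3, 0.73 with Sort1, 0.71 with Ntrk2, 0.51 with Ntf3 and -0.56 with Ngfr. Over the 11 IntSC libraries, after the group means were taken off, r with Ntrk3 was -0.22 and with Ntrk2 0.14. The 10 genes most like Bdnf among 10727 with a mean of at least 5 CPM were 2310022B05Rik (r = 0.95), Fmod, Nr4a3, Gdf6, S100a6, Ppap2b, Cyp2j9, Gpc4, Scara5 and Sept8 (r = 0.91). Fmod, which encodes the matrix proteoglycan fibromodulin, averaged 8.82 CPM in WT and 122 CPM in KO IntSCs and 1.39 and 0.047 CPM in WT and KO LECs. Gdf6, a ligand of the bone morphogenetic protein family, averaged 5.49 and 16.0 CPM in IntSCs and under 0.05 CPM in LECs.

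Within the 11 IntSC libraries the most alike of 10544 genes were Rassf4 (r = 0.95), Samhd1, 2310022B05Rik, Defa24 and AY761184. Defa24 is a Paneth cell defensin, and it averaged 1.17 and 55.7 CPM in WT and KO IntSCs and 4.53 and 118 CPM in WT and KO LECs. AY761184 averaged 0.287 and 15.3 CPM in WT and KO IntSCs and 0.234 and 39.7 CPM in WT and KO LECs. The part of Paneth cell RNA in these correlations was not tested. Over 18 libraries with the group means taken off, the genes most like Bdnf were Zfp618 (r = 0.89), Klhl22 and Rnf144a. For Ntrk3 the most alike genes over 18 libraries were Mmp3 (r = 0.97), Hand2 and Hnmt. For Ntrk2 they were Ttc39c (r = 0.92), Fam20c and AI464131, and for Sort1 Flt1 (r = 0.96), Nupr1 and Ubn2. Ntf3 and Ngfr had looser neighbours, led by Ghr (r = 0.86) and Agpat4 (r = 0.81), followed by Mycbp and Cep63 for Ntf3 and by Sdc1 and Slc16a9 for Ngfr.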

How the data were processed

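RNA from 18 FACS-sorted samples was extracted with Trizol, made into Lexogen Quant-Seq 3′ libraries and sequenced on an Illumina NextSeq. The authors deposited a table of raw read counts per gene symbol for each library, 23282 rows each, and 35 symbols on several rows were summed here. Their methods name TopHat and Cufflinks, and the submitters' processing notes list mm10, Bowtie2 and edgeR. The counting program, its strand setting and the annotation are not given in the sources used here. Groups and replicate numbers came from the titles. No libraries were identical.

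Counts were tested over all genes with edgeR 4.0.16 in R 4.3.3 (TMM, filterByExpr, robust glmQLFit, glmQLFTest, Benjamini-Hochberg, threshold 0.05), with only the groups compared in each fit and all 4 for the interaction. Members too low for a fit were tested by exact permutation of log2(CPM + 1) with scipy 1.17.1. The procedure was tested on simulated counts. Alternatives were DESeq2 1.42.0, limma-voom (limma 3.58.1), RLE and upper-quartile factors, 2 other filters, a replicate block, all 4 groups in one fit, a pseudocount of 0.1, raw totals, totals without Rn45s, and each library left out. Members and gene lists were chosen with earlier results of these data known. Named list genes were those called (at most 4 by p) or, where none was, the 3 with the highest mean CPM, and the 10, 5 or 3 genes most like a member.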

Additional observations from a re-analysis of the deposited data

Results flagged for a closer look

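In the groups of 4 to 6 libraries, 1 library stood apart from the others by Dixon's criterion in 3 of 18 tests of the members. Chance would give about 0.9 for normally distributed values, which these counts are not. Where all other libraries of a group are at 0, any reads give the largest possible gap. This held for Bdnf and Ntrk2, so their flags follow from the zeros. Each was a WT LEC library. Ntrk2 was at 8.14 CPM and Ntrk3 at 18.5 CPM in WT LEC 3, and both were at or below 0.10 CPM in the other WT LECs. Bdnf was at 0.596 CPM in WT LEC 4, from 6 reads, and at 0 in the other WT LECs.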

How the results depend on the processing

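The rise of Bdnf in KO IntSCs kept its direction under all alternatives run and its call under all but 1. With all 4 groups in one fit, 0 members were called there and Bdnf was at 3.19 in log2 (adjusted p = 0.0596 by edgeR). With 1 library left out it ranged from 2.97 to 3.64 (edgeR adjusted p from 1.07e-04 to 0.00363). Between WT LECs and WT IntSCs, 2 members were called by DESeq2, 3 by limma-voom and 1 to 3 with a library left out (2 without WT LEC 2 and 3 without WT LEC 3). The interaction called 2 members with DESeq2 (Bdnf 5.83, Ntrk3 8.50) and 0 to 1 with a library left out (1 without WT LEC 2).

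Correlations between libraries with the same replicate number were small in the pairing check. The mean r was 0.0162 for the IntSC genotypes, 0.00103 for the LEC genotypes and 0.00525 for the KO cell types. Each of these comparisons held negative and positive values. For the WT cell types all same-number values were positive (0.0268 to 0.0383, mean 0.0332), against a mean of -0.0066 for other pairs. Each of the 4 WT LEC libraries also correlated best with its own number. Whether these numbers mark a shared mouse or experiment was not tested. With the replicate number as a block, Bdnf in IntSCs was 3.80 (edgeR adjusted p = 6.19e-04), 0 members were called between the WT cell types (Bdnf -6.81, edgeR adjusted p = 0.0747) and Ntrk2 between the KO cell types had an adjusted p of 0.204. The block turned Ntf3 between LEC genotypes to -2.95, and the interactions of Ntf3 and Ntrk2 to 4.27 and -0.21.

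Values that did not pass the test changed sign in places. Ntf3 between LEC genotypes was -1.87 with limma-voom and -7.81 to 1.55 with a library left out, for the 5 of 7 omissions that could be fitted. Ngfr ranged from -0.017 to 0.93 there and from -0.032 to 0.77 between WT cell types. The interaction of Ntf3 was 3.23 with limma-voom and -0.88 to 8.18 with a library left out, that of Ntrk2 -1.23 to 7.45 and that of Sort1 -1.52 to 0.24. The cause was not tested. With a pseudocount of 0.1, 6 of the 10 genes most like Bdnf stayed in its list. Over all results and settings other than omissions, 281 values kept direction and side, 5 reversed, 3 lost and 7 gained the call and 6 moved. Among omissions of a library, 335 kept both, 12 reversed, 5 gained the call and 3 moved. A library with 0 reads limits a member only to below its 3-read floor, up to 0.427 CPM in LECs and 0.621 CPM in IntSCs on the TMM scale.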
